A study of Homo sapiens with 9 samples.

Results

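The comparison set the 3 libraries labelled TRIDENT gRNA2 directly against the 3 labelled TRIDENT gRNA1, 6 of the 9 libraries of the series, chosen by their titles alone. All came from H1975, a human lung adenocarcinoma line with mutant EGFR, which carried dCas9-KRAB under a doxycycline-inducible promoter (TRE) and had been kept under G418 and puromycin in Tet-free serum. The other 3 libraries carried a non-targeting guide (NT) and were used here as the control to which both guides are referred. Every culture, the controls included, received 4 ug/ml doxycycline for 72 h, and total RNA was sequenced after removal of ribosomal RNA. The labels do not say whether the replicates were separate cultures or whether each guide line was clonal, so p-values measure the spread between these libraries. Whether each guide was carried by 1 line or by several is not stated either, so a guide and the cells that carry it cannot be told apart.

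dCas9-KRAB is a Cas9 that binds DNA without cutting it, fused to a KRAB domain. KRAB domains recruit TRIM28 (also called KAP1), a scaffold for SETDB1, HP1 proteins and histone deacetylases, and so silence genes near the site to which the guide leads them. The title of the series links the long noncoding RNA TRIDENT, induced by EGFR, to phosphorylated TRIM28 and DNA repair. The comparison asks which genes and programmes separate cells with 2 guides aimed at the same RNA.

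The target was measured first. TRIDENT was taken to be LINC02861 (ENSG00000262185.2, AC005736.1 in GENCODE 29), matched through its RefSeq symbol TRIDDENT. The match is an inference from the name. LINC02861 is a lincRNA gene on the minus strand of chromosome 16, chr16:3931217-3950586 in hg38. It was at 1.77, 2.09 and 1.87 CPM (the reads of a gene relative to the scaled read total of its library) in the gRNA1 libraries, resting on 36, 49 and 38 reads. The gRNA2 libraries held 2.52, 2.29 and 2.52 CPM from 61, 60 and 42 reads, and the controls 2.62, 2.28 and 2.85 CPM. All 3 gRNA2 libraries were above all 3 gRNA1 libraries and within the range of the controls. The gRNA2 level was 1.27 times the gRNA1 level (95% interval 1.0 to 1.61), and with an adjusted p of 0.252 over all genes (edgeR quasi-likelihood test) it did not pass the threshold of 0.05. Against the control the folds were 0.745 for gRNA1 (adjusted p = 0.128) and 0.945 for gRNA2 (interval 0.753 to 1.19, adjusted p = 0.81). Neither knockdown therefore passed the test at this depth, and the names gRNA1 and gRNA2 below stand for the libraries so labelled.

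Of the transcripts of LINC02861, ENST00000576810.1 took 67.8% of the reads and stood at 0.99 ± 0.188 TPM (SD, n = 3) with gRNA1 and 1.1 ± 0.0676 TPM with gRNA2. ENST00000571302.1 took 29% and stood at 0.781 ± 0.412 TPM with gRNA1 and 1.58 ± 0.221 TPM with gRNA2. The wider gap lay in the transcript with fewer reads, which had 3.2 to 21.8 estimated reads per guide library. The 250 bases before the RefSeq start of the gene (RefSeq, GRCh38.p14) are printed because a dCas9-KRAB guide acts on the DNA around a start site. The labels used here give no guide sequence, so no position in it is marked.
TRIDDENT, chr16:3950445-3950694, minus strand: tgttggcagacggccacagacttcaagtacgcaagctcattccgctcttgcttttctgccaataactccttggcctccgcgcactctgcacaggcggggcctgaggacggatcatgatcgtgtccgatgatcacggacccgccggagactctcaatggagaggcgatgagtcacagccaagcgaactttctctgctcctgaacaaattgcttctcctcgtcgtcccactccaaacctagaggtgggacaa

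Of the 112 genes annotated within 1 Mb of LINC02861, 64 were tested, of which 0 were higher and 2 lower with gRNA2, DNASE1 at 0.822-fold (adjusted p = 0.00882) and ZNF200 at 0.816-fold (adjusted p = 0.0116). By the edgeR test the background was 3.12% of all 19658 genes higher and 3.1% lower, and the median log2 difference of the 64 was -0.019. The adjacent genes ADCY9 and CREBBP stood at 0.986-fold and 0.936-fold. TRIM28 itself was at 379, 381 and 389 CPM with gRNA1 and at 368, 334 and 317 CPM with gRNA2. The gRNA2 libraries were all lower, at 0.887-fold (interval 0.823 to 0.957), and missed the threshold (adjusted p = 0.063). The call changed with the processing, since TRIM28 passed with DESeq2 (adjusted p = 0.00779), with no filter on low counts (0.00112), with protein-coding genes alone (0.039), without control replicate 1 (0.0415) and without gRNA2 replicate 1 (0.00637). EGFR was at 502, 495 and 500 CPM with gRNA1 and 523, 529 and 539 CPM with gRNA2, a 1.06-fold difference with an adjusted p of 0.107. With transcript-length offsets EGFR passed, at 1.17-fold (adjusted p = 0.0232).

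The libraries of the 2 guides differed in many genes, mostly by small amounts. Of 19658 genes tested, 613 were called higher and 609 lower in the gRNA2 libraries, 6.22% in all, at an adjusted p under 0.05. The median called fold was 1.2 among the higher genes and 0.829 among the lower, and 569 and 528 of them were within 1.5-fold. At least 2-fold differences were called for 7 genes higher (0.0356%) and 23 lower (0.117%). All 3 gRNA2 libraries were above all 3 gRNA1 libraries for 11.9% of genes and below them for 12%. Protein-coding genes made up 550 of the higher and 575 of the lower calls, out of 14018 tested. With gRNA2 replicate 2 left out the count was 575, without gRNA1 replicate 1 it was 690 and without gRNA1 replicate 2 it was 641. With transcript-length offsets, which correct for a shift between isoforms of different length, it was 446, of which 59.0% were higher against 50.2% in the fit as planned.

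**Figure D1:**
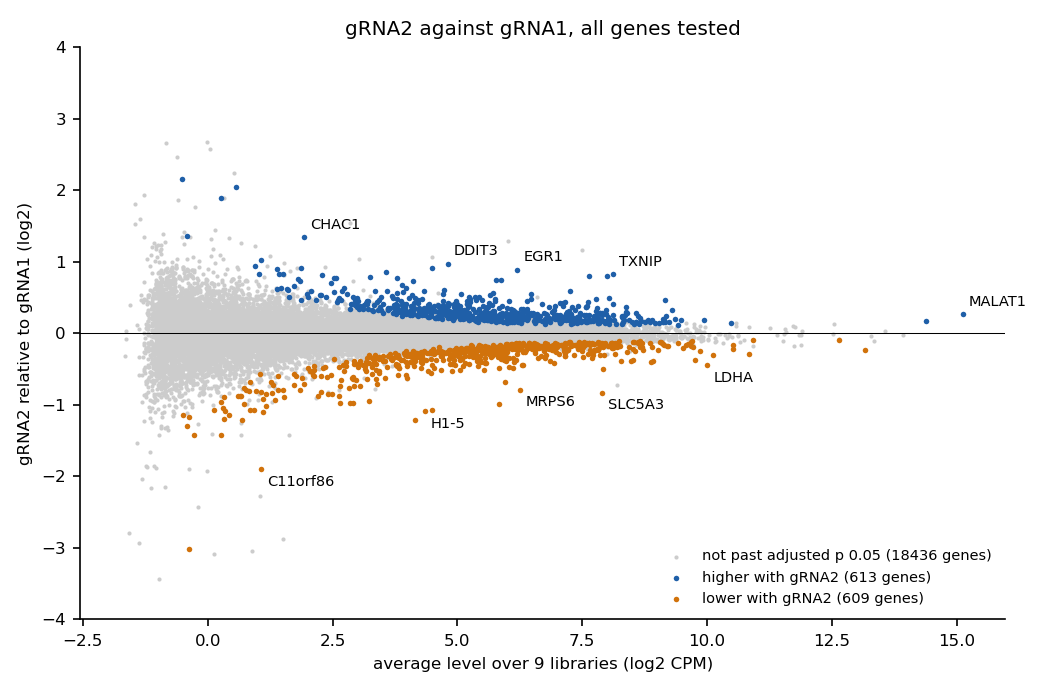
Each of the 19658 genes tested, by average log2 CPM over the libraries (x axis) and log2 difference of gRNA2 minus gRNA1 (y axis, cut at 4, with 13 genes beyond it, 4 of them called). Coloured points passed an adjusted p of 0.05, and most lie close to 0: the median called fold was 1.2 above and 0.829 below.

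Read totals were 20331102 to 23481019 in the gRNA1 libraries and 16918432 to 26466536 in the gRNA2 libraries. Mitochondrial transcripts took 5.718% to 6.612% of reads with gRNA1, highest in replicate 3, and 5.782% to 6.203% with gRNA2. The 7 epithelial and lung markers, KRT7 and NKX2-1 among them, summed to 2930 to 3090 CPM with gRNA1 and 2840 to 3040 CPM with gRNA2. The lung lineage factor NKX2-1, itself called lower with gRNA2, was at 61.5, 61 and 68.4 CPM against 57.5, 53.2 and 53.4 CPM (0.861-fold, adjusted p = 0.0264), and the call ended without gRNA1 replicate 1 or 3, without gRNA2 replicate 2 or 3 and with transcript-length offsets. The keratin KRT19 was lower too, at 406, 420 and 442 CPM against 383, 365 and 358 CPM (0.873-fold, adjusted p = 0.0229). The part of these levels in the results below was not tested. Of 16 markers of blood, vessel, stromal and other cells, MS4A1, COL3A1, HBA1 and HBB were at 0 in every library, and the list summed to 70.3 to 73.7 CPM with gRNA1 and 72.0 to 83.0 CPM with gRNA2, most of it CD68. The first principal component, with 24.2% of the variance, placed the controls at -19.88 to -11.12 and both guides on one side of them. On it the guides overlapped, gRNA1 at 4.806 to 10.18 and gRNA2 at 1.954 to 12.19. The second principal component, with 17.4% of the variance, placed gRNA1 at 9.128 to 13.38 and gRNA2 at -14.02 to -8.383 with the controls between them at -2.238 to 0.7601.

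Genes of cell division were lower in the libraries labelled gRNA2 than in those labelled gRNA1. Genes of G2 and mitosis are switched on late in the cell cycle by the MuvB complexes, which bind the cell cycle homology region (CHR), and by NF-Y at CCAAT boxes, whereas E2F factors drive the genes of DNA replication. Of 49 G2 and mitosis genes tested, 38 were lower with gRNA2 and 0 higher (against 3.1% and 3.12% of all genes). In 42 of the 49 all 3 gRNA2 libraries were below all 3 gRNA1 libraries, against 12% of all genes. The median log2 difference was -0.285, against 0.004 over all genes. In bulk RNA, fewer cells in a phase and less RNA of these genes per cell cannot be told apart.

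CCNB1, the cyclin that activates CDK1 for entry into mitosis, was at 83.8, 86 and 78.5 CPM with gRNA1 and 60.4, 60.4 and 62.4 CPM with gRNA2. The lowest gRNA1 library was above the highest gRNA2 library, and the fold was 0.736 (interval 0.691 to 0.785, adjusted p = 3.69e-05). MKI67, the proliferation antigen Ki-67 that coats mitotic chromosomes, stood at 486, 493 and 538 CPM against 373, 382 and 394 CPM, again without overlap (0.758-fold, adjusted p = 4.84e-05). ANLN, the scaffold of the cytokinetic ring, was at 0.762-fold (adjusted p = 0.000128), and CENPF, a kinetochore protein, at 0.783-fold (adjusted p = 0.000143). CDC20, the activator of the anaphase-promoting complex, fell from 44.7, 45.1 and 48.2 CPM to 36.5, 32.4 and 31.4 CPM (0.729-fold, adjusted p = 0.000369). The mitotic kinase PLK1 went from 32.3, 31.9 and 32.9 CPM to 25.1, 23.2 and 23.4 CPM (0.74-fold, adjusted p = 0.000539). CDK1 itself was at 0.893-fold and did not pass (adjusted p = 0.112). Of the genes named, CDC20 shares 20.3% of its 31-base words with other genes, and 6 of the 38 called members share at least 20%.

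The count of lower members was 26 to 35 when any 1 library was left out. With transcript-length offsets it was 11, and MKI67 (adjusted p = 0.0759) and CENPF (adjusted p = 0.106) were not called, while the median over the list kept within -0.293 to -0.284 over all alternatives other than leaving out a library. The promoters of 40 of these genes were in the RefSeq table. In the window from 250 bases before to 50 after the start, on either strand, TTTGAA (the CHR) was found in 72.5% of them, against 10.4% of the 12331 tested genes with a promoter. The related TTTAAA, which reads the same on both strands, was found in 35.0% against 8.0%, and CCAAT in 75.0% against 36.6%. Among all genes called lower, the shares were 19.8% for TTTGAA and 46.2% for CCAAT, and among those called higher 9.71% and 35.1%. The genes called lower include the called members of this list and of the histones below, so their shares are not separate from those of the lists. A match is a description of letters and no evidence of binding. The 250 bases upstream of 3 members are printed to show where some of these strings lie (RefSeq, GRCh38.p14, capitals on the strings or their reverse complements). Upstream of CCNB1 there is no TTTGAA, and the capitals mark TTTAAA and CCAAT boxes. For CDC20 they mark TTTGAA on each strand and CCAAT boxes, with no TTTAAA. Each of the 3 strings is found upstream of PLK1.
CCNB1, chr5:69166900-69167149, plus strand: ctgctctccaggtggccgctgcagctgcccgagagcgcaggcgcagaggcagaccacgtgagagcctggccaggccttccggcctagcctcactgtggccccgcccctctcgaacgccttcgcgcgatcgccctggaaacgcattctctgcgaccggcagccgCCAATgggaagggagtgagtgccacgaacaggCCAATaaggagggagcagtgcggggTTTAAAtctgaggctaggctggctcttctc
CDC20, chr1:43358731-43358980, plus strand: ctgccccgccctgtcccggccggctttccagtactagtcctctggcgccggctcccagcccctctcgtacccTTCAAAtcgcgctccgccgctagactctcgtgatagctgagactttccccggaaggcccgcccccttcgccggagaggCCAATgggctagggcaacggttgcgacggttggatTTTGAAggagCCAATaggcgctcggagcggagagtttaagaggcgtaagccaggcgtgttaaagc
PLK1, chr16:23678639-23678888, plus strand: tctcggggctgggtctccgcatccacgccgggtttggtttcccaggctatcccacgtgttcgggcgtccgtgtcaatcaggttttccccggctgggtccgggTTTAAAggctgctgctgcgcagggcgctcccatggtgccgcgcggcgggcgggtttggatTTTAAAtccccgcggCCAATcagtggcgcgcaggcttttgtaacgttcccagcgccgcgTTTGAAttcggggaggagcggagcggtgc

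Genes of S phase followed in the same direction with fewer calls. Of 49 tested, 20 were lower and 0 higher, with a median log2 difference of -0.193. PCNA, the sliding clamp of the replicative polymerases, was at 45.6, 45.4 and 44.2 CPM with gRNA1 and 34.3, 36.2 and 34.5 CPM with gRNA2 (0.777-fold, interval 0.714 to 0.844, adjusted p = 0.00136). The libraries of the guides did not overlap. Of the replicative helicase, MCM4 was at 0.76-fold (adjusted p = 0.000158) and MCM3 at 0.787-fold (adjusted p = 0.00166). Its subunit MCM6 went from 51.6, 52.8 and 52.2 CPM to 42.2, 44.6 and 41.5 CPM (0.821-fold, adjusted p = 0.00209), and MCM2 at 0.902-fold did not pass (adjusted p = 0.0924).

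This list was less stable than that of mitosis. It held 13 lower members without gRNA1 replicate 1 or replicate 2, 12 without gRNA2 replicate 2 and 2 with transcript-length offsets, where MCM4 (adjusted p = 0.167) and MCM3 (adjusted p = 0.126) were not called and the median was -0.153. Among the promoters of 42 members, TTTCCCGC, an E2F site, was found in 26.2% against 2.45% of tested genes, and its variant TTTGGCGC in 14.3% against 0.965%, on either strand. CCAAT was found in 59.5%. The upstream 250 bases of MCM6 and PCNA carry 2 matches and 1 match to these E2F strings, marked in capitals (GCGGGAAA is the reverse complement of TTTCCCGC).
MCM6, chr2:135876444-135876693, minus strand: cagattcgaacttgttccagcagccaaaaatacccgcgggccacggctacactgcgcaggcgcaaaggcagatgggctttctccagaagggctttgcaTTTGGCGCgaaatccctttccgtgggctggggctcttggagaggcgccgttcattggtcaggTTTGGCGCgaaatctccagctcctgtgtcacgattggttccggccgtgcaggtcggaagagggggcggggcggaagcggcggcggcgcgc
PCNA, chr20:5126623-5126872, minus strand: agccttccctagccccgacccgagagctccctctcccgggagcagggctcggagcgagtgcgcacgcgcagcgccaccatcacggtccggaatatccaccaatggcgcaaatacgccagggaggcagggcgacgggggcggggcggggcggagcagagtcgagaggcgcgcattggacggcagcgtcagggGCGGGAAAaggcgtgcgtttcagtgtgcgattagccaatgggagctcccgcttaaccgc

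The replication-dependent histones, which are made in S phase to package new DNA and whose messages lack a poly(A) tail, had a median further from 0 than the G2 and mitosis genes or the S phase genes. Of 68 in the tables, 62 were tested and 43 were lower with gRNA2, with 0 higher and a median log2 difference of -0.473. All 3 gRNA2 libraries were below all 3 gRNA1 libraries in 55 of the 62, against 12% of all genes. H1-5, a linker histone, was at 25.1, 25 and 25.3 CPM with gRNA1 and at 11.8, 12.2 and 11.4 CPM with gRNA2. The guides were far apart, at 0.47-fold (interval 0.422 to 0.524, adjusted p = 9.22e-07), and the controls at 23.4, 21.8 and 26.1 CPM lay with gRNA1. The core histone gene H3C2 was at 11.1, 11.7 and 11.4 CPM against 6.1, 5.88 and 5.65 CPM (0.518-fold, adjusted p = 1.12e-05).

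The somatic linker histone H1-2 was at 109, 109 and 108 CPM against 85.2, 87.0 and 89.2 CPM (0.803-fold, adjusted p = 0.000163). H2AC20 was at 0.61-fold (adjusted p = 0.000152) and H2AC19 at 0.432-fold (adjusted p = 0.0141). H2AC19 shares 97.2% and H2AC20 50.6% of its 31-base words with other genes, and so do 16 of the 43 called histones for at least 20% of theirs, so that the estimated counts could be split between copies. H1-5 and H3C2 share less than this. H2AC19 was not called without gRNA1 replicate 1 (adjusted p = 0.0738), without gRNA2 replicate 2 (adjusted p = 0.0896) or with transcript-length offsets (adjusted p = 0.0756). Of 57 histone promoters in the RefSeq table, 86% held CCAAT against 36.6% of tested genes. The upstream bases of H1-5 and H3C2 each hold 2 such boxes, in capitals.
H1-5, chr6:27867589-27867838, minus strand: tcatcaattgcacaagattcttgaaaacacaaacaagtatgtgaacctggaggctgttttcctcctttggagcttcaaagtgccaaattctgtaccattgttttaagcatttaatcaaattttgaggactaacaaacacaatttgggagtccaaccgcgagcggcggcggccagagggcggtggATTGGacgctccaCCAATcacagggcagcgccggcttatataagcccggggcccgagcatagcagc
H3C2, chr6:26032100-26032349, minus strand: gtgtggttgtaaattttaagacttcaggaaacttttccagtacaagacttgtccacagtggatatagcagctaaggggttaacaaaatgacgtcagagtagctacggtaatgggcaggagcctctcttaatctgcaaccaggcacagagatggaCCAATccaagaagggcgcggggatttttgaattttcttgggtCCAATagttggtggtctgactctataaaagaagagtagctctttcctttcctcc

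Set beside the control, both parts of each cell-cycle difference can be read, though the comparisons share the control libraries. In gRNA1 against control, 0 G2 and mitosis genes were higher and 1 lower with a median log2 difference of -0.046 (background 3.49% higher and 3.58% lower over all genes). In gRNA2 against control, 0 were higher and 41 lower with a median of -0.317 (background 3.69% and 4.75%). Of the S phase genes, 1 was lower with gRNA1 and 24 with gRNA2, and of the histones 0 and 43, with histone medians of 0.043 and -0.472. Of 27 G1 cyclins, CDK inhibitors, RB and E2F genes, 1 was higher in gRNA2 than in gRNA1 and 0 were lower. The share higher was 3.7%, near the 3.12% of all genes, and the median was 0.013. The 1 higher gene was CCND1 (cyclin D1) at 1.1-fold (adjusted p = 0.0243), whose call ended without gRNA1 replicate 1 or 2 or gRNA2 replicate 2 or 3, and 2 were higher with no filter on low counts. Of the genes of homologous recombination, the Fanconi pathway and end joining, 4 of 41 were lower in gRNA2 than in gRNA1 and 0 higher, with a median of -0.081. Those 4 were XRCC6 and XRCC5, the Ku subunits that bind broken ends (0.817-fold, adjusted p = 0.000303, and 0.868-fold, adjusted p = 0.00683), the resection nuclease EXO1 (0.788-fold, adjusted p = 0.0291) and the end-joining polymerase POLQ (0.881-fold, adjusted p = 0.035). BRCA1 at 0.898-fold did not pass (adjusted p = 0.0775). XRCC6 shares 28% of its 31-base words with other genes. The repair list held 2 lower members without gRNA1 replicate 1, without gRNA1 replicate 2 or without gRNA2 replicate 2, and 0 with transcript-length offsets. EXO1 and POLQ were the members lost without those libraries. The call of EXO1 also ended with DESeq2, with the replicate block and without gRNA1 replicate 3 or gRNA2 replicate 1. That of POLQ also ended with the 6 guide libraries alone and without control replicate 2 or 3 or gRNA2 replicate 3.

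Of 18 KRAB cofactors and heterochromatin genes, 4 were lower and 0 higher, with a median of -0.073. HDAC1, a histone deacetylase, was at 75.9, 73.7 and 76.6 CPM with gRNA1 and 60.0, 60.3 and 56.6 CPM with gRNA2 (0.784-fold, adjusted p = 0.000174). CBX5, the HP1 protein that reads methylated histone H3, was at 0.86-fold (adjusted p = 0.000923). The libraries of both genes were separated. The count of 4 was 2 without gRNA1 replicate 1, without gRNA2 replicate 2 or with transcript-length offsets, and HDAC1 and CBX5 were called under every alternative run.

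**Figure D2:**
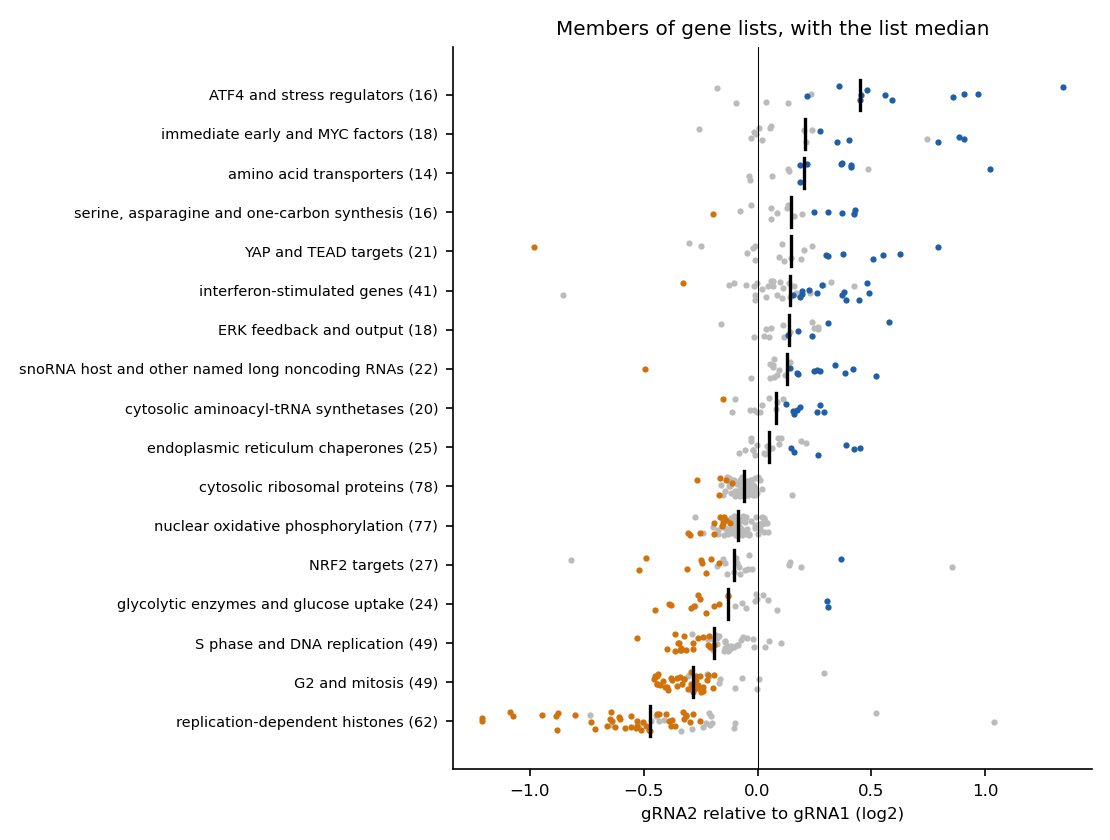
The log2 difference of gRNA2 minus gRNA1 for every tested member of 17 gene lists (one row a list), blue where called higher, orange where called lower, with the list median as a black bar. The histones (median -0.473) and the G2 and mitosis genes (-0.285) lie left of 0 and the ATF4 and stress regulators (0.451) right of it.

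Regulators of the integrated stress response were higher in the libraries labelled gRNA2. When amino acids run short or the endoplasmic reticulum is overloaded, phosphorylation of eIF2 favours translation of the factor ATF4, which switches on DDIT3 (CHOP), ATF3, CHAC1 and the genes of amino acid supply. Of 16 genes of this kind tested, 11 were higher with gRNA2 and 0 lower, with a median log2 difference of 0.451, and the count was 9 to 12 with any 1 library left out. CHAC1, which breaks down glutathione, was at 2.12, 2.31 and 2.76 CPM with gRNA1 and 5.9, 6.34 and 5.95 CPM with gRNA2. Every gRNA2 library lay above the highest gRNA1 library, and the fold was 2.53 (interval 2.05 to 3.13, adjusted p = 8.5e-05).

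DDIT3, the pro-apoptotic partner of C/EBP factors, was at 18.7, 19.6 and 23.7 CPM against 41.5, 39.5 and 40.3 CPM (1.96-fold, interval 1.76 to 2.18, adjusted p = 3.6e-06). ATF3 was at 16.1, 17.0 and 16.3 CPM against 32.4, 30.4 and 30.0 CPM (1.88-fold, adjusted p = 9.22e-07). SESN2, which restrains mTORC1 when leucine is short, was at 1.81-fold (adjusted p = 0.000386), and GDF15, a secreted stress cytokine, at 1.51-fold (adjusted p = 0.000923). Both PPP1R15A (GADD34), which directs dephosphorylation of eIF2, and the secreted glycoprotein STC2 were higher, at 1.47-fold (adjusted p = 1.89e-05) and 1.39-fold (adjusted p = 9.29e-06). The level of ATF4 messenger RNA was 208, 204 and 218 CPM with gRNA1 and 237, 229 and 224 CPM with gRNA2, 1.1-fold, and did not pass (adjusted p = 0.0717). ATF5 was at 0.936-fold (adjusted p = 0.787). Of 31-base words, 28.9% of those of DDIT3 are shared with other genes. TGATGNAAT, the C/EBP-ATF response element, was found in 0 of the 14 promoters of this list and in 0.503% of those of tested genes.

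Genes of amino acid supply were on the same side as these regulators. Among those for serine, asparagine and one-carbon synthesis, 5 of 16 were higher and 1 lower (median 0.148). ASNS, asparagine synthetase, was at 125, 125 and 113 CPM with gRNA1 and 161, 167 and 161 CPM with gRNA2 (1.35-fold, adjusted p = 3.86e-05). PSAT1, the transaminase of serine synthesis, was at 118, 118 and 108 CPM against 154, 154 and 155 CPM (1.34-fold, adjusted p = 2.57e-05). The mitochondrial folate enzymes MTHFD2 and ALDH1L2 were at 1.24-fold (adjusted p = 0.000377) and 1.29-fold, whereas PHGDH, the first step of serine synthesis, was at 1.12-fold and did not pass (adjusted p = 0.146). The 1 lower member was the cytosolic folate enzyme MTHFD1, at 0.873-fold. Shared 31-base words make up 42.7% of those of ASNS and 39.2% of those of MTHFD2.

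Of 14 amino acid transporters, 8 were higher and 0 lower (median 0.202). SLC3A2, the heavy chain shared by several exchangers, was at 106, 107 and 106 CPM with gRNA1 and 145, 138 and 130 CPM with gRNA2 (1.29-fold, adjusted p = 0.000384). The glutamine carrier SLC1A5 was at 1.33-fold (adjusted p = 0.000636), and SLC43A1, a carrier of large neutral amino acids at a low level, went from 1.43, 1.49 and 1.53 CPM to 3.26, 2.98 and 2.76 CPM (2.03-fold, adjusted p = 0.00317). Of 20 cytosolic aminoacyl-tRNA synthetases, which charge transfer RNAs, 8 were higher and 1 lower (median 0.083). AARS1 was at 1.21-fold (adjusted p = 0.000377), MARS1 at 1.22-fold (adjusted p = 0.00044), and the call of the 1 lower member was lost without any 1 library other than gRNA2 replicate 3. The transporters held 5 higher members without gRNA1 replicate 2, without gRNA2 replicate 2 or with transcript-length offsets, and the synthetases 3, 5 and 5 in those fits.

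In the endoplasmic reticulum the difference was narrower, with 6 of 25 chaperone and sensor genes higher and 0 lower (median 0.051). The sensor ERN1 (IRE1) was at 28.0, 27.3 and 27.6 CPM with gRNA1 and 36.4, 39.3 and 37.4 CPM with gRNA2 (1.37-fold, adjusted p = 0.000144, and 0.0906 with transcript-length offsets). Its splicing substrate XBP1 was at 1.2-fold (adjusted p = 0.000874), and DNAJB9, a co-chaperone, at 1.34-fold (adjusted p = 0.00193). Of the abundant chaperones, HSPA5 (BiP) was at 1.11-fold (adjusted p = 0.0121) and HSP90B1 at 1.02-fold (adjusted p = 0.74). With transcript-length offsets 2 of the 25 were higher. Cytosolic heat shock genes lay on the other side, with 4 of 19 lower and 0 higher (median -0.069), namely HSPA8, HSPH1, HSP90AA1 and HSPA4 at 0.841-fold to 0.901-fold. That count was 2 without gRNA2 replicate 2 or with transcript-length offsets.

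Relative to the control, the median log2 difference of the ATF4 and stress regulators was -0.122 with gRNA1, where 0 were higher and 3 lower, and 0.32 with gRNA2, where 11 were higher and 1 lower. For the transporters the medians were -0.137 and 0.063, with 3 lower in gRNA1 and 4 higher in gRNA2. The median of the endoplasmic reticulum genes was below the control with both guides. It was -0.147 with gRNA1, with 0 higher and 10 lower, and -0.099 with gRNA2, with 2 higher and 8 lower. ASNS was at 0.84-fold of the control with gRNA1 (adjusted p = 0.00255) and 1.13-fold with gRNA2 (adjusted p = 0.0176). Both comparisons share the control libraries, so the sides are given as values only.

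Immediate early factors, which growth factor and stress signals switch on within minutes, were higher with gRNA2 in 6 of 18 cases and lower in 0 (median 0.208). EGR1, a zinc finger factor downstream of ERK, was at 54.5, 56.1 and 56.7 CPM with gRNA1 and 109, 97.1 and 103 CPM with gRNA2, with controls at 62.8, 60.9 and 57.7 CPM. The gRNA2 libraries stood above all 6 others, and the fold between the guides was 1.85 (interval 1.72 to 1.99, adjusted p = 2.03e-07). MYC was at 190, 189 and 197 CPM with gRNA1, 341, 334 and 323 CPM with gRNA2 and 252, 236 and 227 CPM in the controls, which lay between the guides (1.73-fold between guides, interval 1.63 to 1.84, adjusted p = 9.92e-08). KLF6 was at 1.27-fold (adjusted p = 3.24e-05) and JUN at 1.21-fold (adjusted p = 0.0031), and FOS overlapped between the guides at 1.15-fold (adjusted p = 0.253).

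Of 18 genes of ERK feedback and output, 5 were higher and 0 lower (median 0.138). SPRY1, a feedback inhibitor of receptor signalling, was at 12, 10.8 and 11.5 CPM with gRNA1 and 17.8, 17.1 and 16.0 CPM with gRNA2 (1.49-fold, adjusted p = 0.00068), and the factor ETV5 at 1.24-fold (adjusted p = 0.000425). Neither was called with transcript-length offsets (adjusted p = 0.277 and 0.106). The ERK phosphatase DUSP6 was at 1.2-fold and did not pass (adjusted p = 0.169). The count was 2 without gRNA1 replicate 1, without gRNA1 replicate 2, without gRNA2 replicate 2 or with transcript-length offsets. Among EGFR family genes and ligands, 3 of 11 were higher and 0 lower, all ligands. The call of 1 of them, TGFA, ended under every alternative but protein-coding genes alone. It also ended without any 1 library other than gRNA2 replicate 1. The higher count was 2 to 3 with any 1 library left out. AREG (amphiregulin) was at 12.9, 12.7 and 14.6 CPM with gRNA1 and 22.3, 22.3 and 21.5 CPM with gRNA2 (1.65-fold, interval 1.49 to 1.83, adjusted p = 3.51e-05). EREG (epiregulin) was at 27.6, 29.5 and 26.9 CPM against 33.7, 38.7 and 38.9 CPM (1.32-fold, adjusted p = 0.00179, and 0.23 with transcript-length offsets), with both guides above the control at 1.38-fold and 1.83-fold.

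Targets of the Hippo effector YAP, which joins TEAD factors to report on cell contact and tension, were higher in 7 of 21 cases and lower in 1 (median 0.145, 4 higher with transcript-length offsets). CCN1 (CYR61), a matricellular protein, was at 150, 149 and 155 CPM with gRNA1, 266, 264 and 256 CPM with gRNA2 and 186, 180 and 183 CPM in the controls. Each group was separate from the other 2, and the fold between guides was 1.73 (interval 1.65 to 1.82, adjusted p = 1.63e-08). CCN2 (CTGF) was at 14.5, 14.5 and 13.7 CPM against 22.6, 22.4 and 20.8 CPM (1.54-fold, adjusted p = 0.000158), and both guides were above the control, at 1.38-fold and 2.13-fold. AMOTL2, which sequesters YAP at junctions, was at 1.46-fold (adjusted p = 2.35e-05) and F3 (tissue factor) at 1.42-fold (adjusted p = 5.45e-05), while ANKRD1 overlapped at 1.15-fold (adjusted p = 0.201). The 1 lower member was IGFBP3, at 10.3, 10.4 and 11.8 CPM with gRNA1 and 5.2, 4.54 and 7.03 CPM with gRNA2 (0.507-fold, adjusted p = 0.000429).

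**Figure D3:**
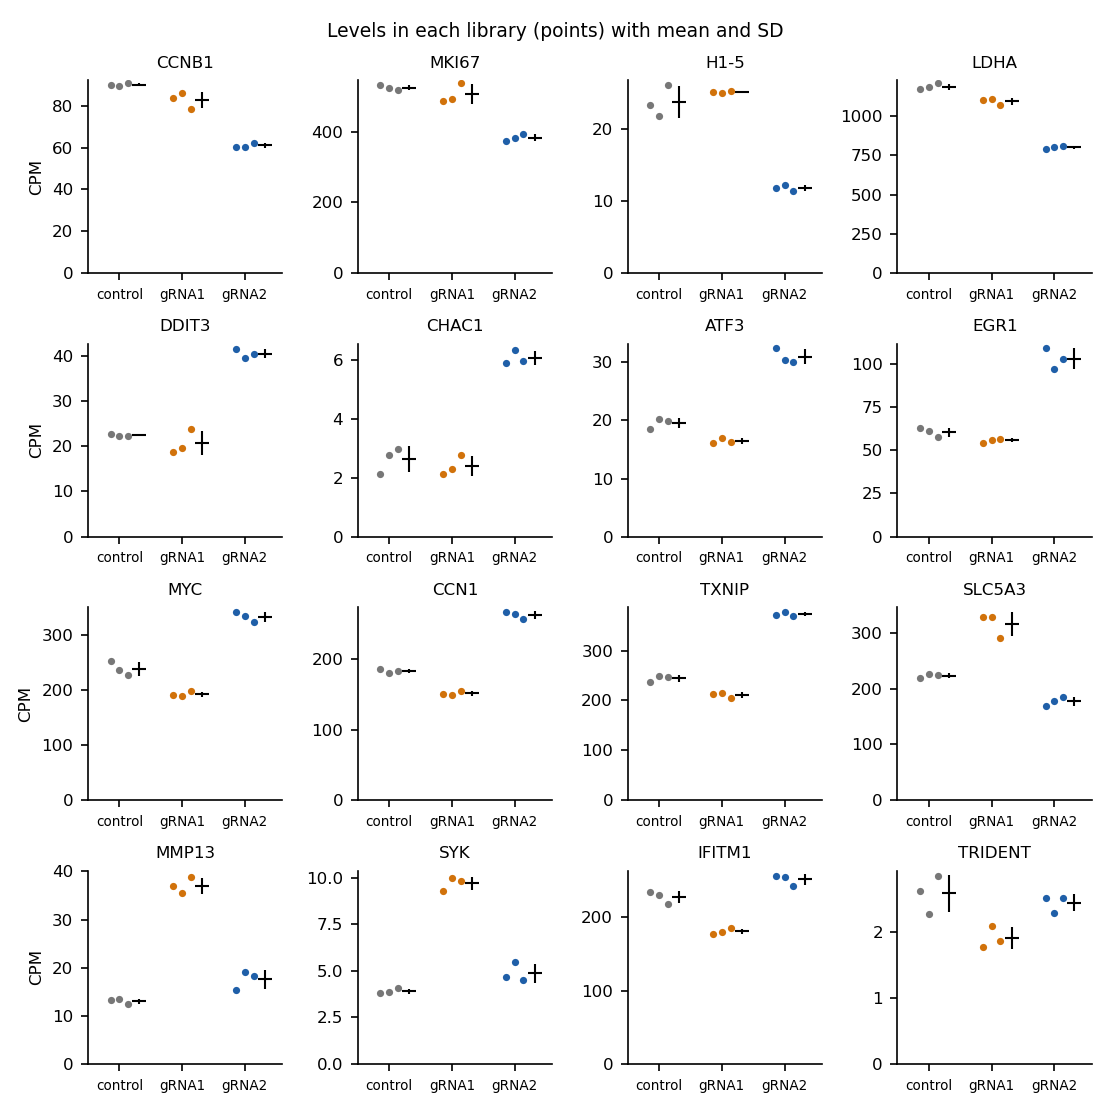
CPM in every library (points) with the group mean and SD for 16 genes, each axis from 0, in the control, gRNA1 and gRNA2 groups. H1-5 stood at 11.4 to 12.2 CPM with gRNA2 and 21.8 CPM or more elsewhere, EGR1 at 97.1 CPM or more with gRNA2 and 62.8 CPM or less elsewhere, and MMP13 at 35.5 CPM or more with gRNA1 and 19.1 CPM or less elsewhere.

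Glucose use separated the guides in 2 directions. Of 24 glycolytic enzymes and glucose transporters, 11 were lower with gRNA2 and 2 higher (median -0.131), and the lower count was 8 to 11 with any 1 library left out. LDHA, which reduces pyruvate to lactate, was at 1105, 1112 and 1069 CPM with gRNA1 and 791, 802 and 810 CPM with gRNA2 (0.731-fold, interval 0.701 to 0.763, adjusted p = 7.06e-07). PKM, pyruvate kinase, was at 904, 900 and 1003 CPM against 742, 714 and 704 CPM (0.769-fold, adjusted p = 0.000144). The groups of both genes were well apart. The 2 higher members were HK2, the hexokinase bound to mitochondria, at 126, 124 and 129 CPM against 156, 159 and 154 CPM (1.23-fold, adjusted p = 0.000158), and the transporter SLC2A3 (GLUT3) at 1.24-fold (adjusted p = 0.000318). HK2 was below the control with gRNA1 (0.76-fold, adjusted p = 1.42e-05) and at 0.938-fold of it with gRNA2 (adjusted p = 0.119). LDHA was below the control with each guide, at 0.921-fold (adjusted p = 0.0239) and 0.674-fold (adjusted p = 2.66e-07). Of 31-base words, 30.4% of those of SLC2A3 are shared with other genes.

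Of 20 other hypoxia-inducible genes, 2 were higher and 5 lower (median -0.104). DDIT4 (REDD1), an mTORC1 inhibitor that ATF4 also induces, was at 41.5, 42.9 and 46.4 CPM with gRNA1 and 78.5, 73.7 and 67.0 CPM with gRNA2 (1.68-fold, adjusted p = 1.04e-05). NDRG1 was at 0.756-fold (adjusted p = 0.000484, and 0.183 with transcript-length offsets), and VEGFA at 0.92-fold did not pass (adjusted p = 0.177). The lower count was 3 without gRNA1 replicate 1, gRNA1 replicate 2, gRNA2 replicate 1 or gRNA2 replicate 2, and 1 with transcript-length offsets. The higher count was 1 without gRNA1 replicate 1, gRNA1 replicate 2 or gRNA2 replicate 2 and with those offsets.

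TXNIP, an arrestin-like protein that limits glucose uptake and is induced by the glucose sensor MondoA, was at 212, 215 and 204 CPM with gRNA1 and 372, 378 and 370 CPM with gRNA2. The controls, at 237, 249 and 247 CPM, lay between the guides, and the fold between guides was 1.78 (interval 1.69 to 1.87, adjusted p = 1.63e-08). Its paralogue ARRDC4 was also higher, at 12.1, 10.5 and 8.91 CPM against 16.7, 18.5 and 19 CPM (1.71-fold, adjusted p = 0.000258). Another arrestin-like gene, ARRDC3, was lower at 0.769-fold (adjusted p = 0.000625). Of the 11 glucose-sensing and osmolyte genes tested, 2 were higher and 4 lower.

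SLC5A3 is the sodium/myo-inositol cotransporter that brings the osmolyte inositol into cells. It was at 328, 328 and 291 CPM with gRNA1, 169, 177 and 185 CPM with gRNA2 and 218, 226 and 225 CPM in the controls (0.561-fold between guides, interval 0.522 to 0.602, adjusted p = 2.66e-07). MRPS6, a mitochondrial ribosomal protein gene, was at 100, 103 and 98.5 CPM, 56.4, 58.1 and 59.8 CPM, and 68.1, 68.3 and 70.6 CPM in the same order (0.578-fold, adjusted p = 8.41e-08). In both genes the controls lay between the guides. The genes overlap on the plus strand of chromosome 21, SLC5A3 at chr21:34073570-34106262 within MRPS6 at chr21:34073224-34143034 in GENCODE 29, so reads of one could be counted to the other. Of 76 mitochondrial ribosomal protein genes tested, 1 was higher and 2 lower, MRPS6 included. These shares, 1.32% and 2.63%, were below the 3.12% and 3.1% of all genes.

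Interferon-stimulated genes, the antiviral programme of the cell, were higher with gRNA2 than with gRNA1 in 13 of 41 cases and lower in 1 (median 0.144). Against the control, 1 was higher and 11 lower with gRNA1 (median -0.114), and 5 higher and 4 lower with gRNA2 (median 0.025). IFITM1, which blocks entry of enveloped viruses, was at 177, 180 and 185 CPM with gRNA1 and 257, 255 and 243 CPM with gRNA2 (1.4-fold, interval 1.32 to 1.48, adjusted p = 8.45e-06). Its level in the controls was 234, 231 and 218 CPM, above gRNA1 (0.793-fold, adjusted p = 0.000171) and below gRNA2 (1.11-fold, adjusted p = 0.0311). GBP1, an interferon-induced GTPase, was at 1.41-fold (adjusted p = 0.000539), IFITM2 at 1.3-fold (adjusted p = 0.000343) and PARP14 at 1.17-fold (adjusted p = 0.000664, and 0.263 with transcript-length offsets). IFITM1 shares 35.3% and IFITM2 45.2% of its 31-base words with other genes. ISG15 overlapped between the guides at 0.988-fold (adjusted p = 0.966), and the 1 lower member was SAMD9 (0.796-fold, adjusted p = 0.000895). The count was 8 without gRNA1 replicate 1, without gRNA1 replicate 2 or with transcript-length offsets, and 6 without gRNA2 replicate 2.

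Genes under the oxidative stress factor NRF2 were lower in 8 of 27 cases and higher in 1 (median -0.105, 5 lower with transcript-length offsets). HMOX1, heme oxygenase, was at 76.8, 77.2 and 82.7 CPM with gRNA1 and 61.1, 55.7 and 51.3 CPM with gRNA2 (0.713-fold, adjusted p = 0.000204). The guides did not overlap. The export pump ABCC2 was at 36.2, 36.2 and 35.5 CPM with gRNA1 and 23.5, 26.3 and 25.3 CPM with gRNA2 (0.698-fold, adjusted p = 0.000193, and 0.179 with transcript-length offsets), and both guides were above the control, at 2.42-fold and 1.69-fold. The 1 higher member was SLC7A11, the cystine carrier, which ATF4 also induces, at 1.29-fold (adjusted p = 0.00317). Nuclear genes of oxidative phosphorylation had 12 of 77 lower and 0 higher (median -0.088), with 2 lower without gRNA1 replicate 2 or gRNA2 replicate 2, 5 without gRNA1 replicate 1, 6 without gRNA2 replicate 1 and 0 with transcript-length offsets.

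Several long noncoding RNAs were higher in the libraries labelled gRNA2. Of 22 snoRNA hosts and other named long noncoding RNAs, 10 were higher and 1 lower (median 0.13, 4 higher with transcript-length offsets). SNHG32 was at 40.8, 38.9 and 43.0 CPM with gRNA1 and 55.8, 54.9 and 53 CPM with gRNA2 (1.34-fold, adjusted p = 0.000137), which is where the controls stood, at 53.9, 53 and 54.4 CPM. MALAT1, a nuclear speckle RNA and the gene with the most reads in every library, was at 31838, 32075 and 33290 CPM against 36739, 39458 and 40435 CPM (1.2-fold, adjusted p = 0.00044). NEAT1, the scaffold of paraspeckles, was at 1.13-fold (adjusted p = 0.00047), and GAS5 at 1.06-fold did not pass (adjusted p = 0.276). The 1 lower member was HAGLR (0.709-fold, adjusted p = 0.0275), whose call ended without any of 5 libraries, gRNA1 replicates 1, 2 and 3 and gRNA2 replicates 1 and 3, and with DESeq2 or transcript-length offsets.

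**Figure D4:**
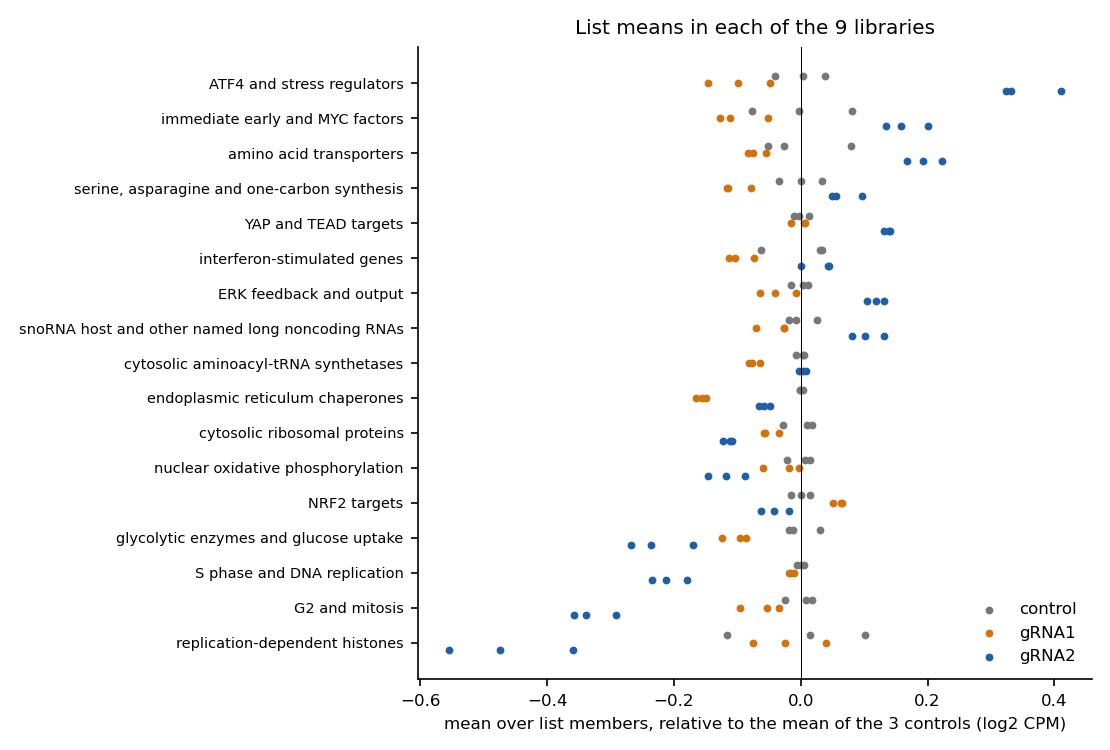
The mean log2 level of the members of 17 gene lists in every library, relative to the mean of the controls (log2 scale, one panel row a list, points by library). In the histones the gRNA2 libraries sit at -0.555 to -0.36 and the gRNA1 libraries at -0.076 to 0.04, and in the ATF4 and stress regulators at 0.323 to 0.411 against -0.147 to -0.049.

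Among the 12 genes with the lowest folds at a log2 CPM of at least 1, several were higher with gRNA1 than in the control and closer to the control with gRNA2. MMP13, a collagenase, was at 36.9, 35.5 and 38.8 CPM with gRNA1, 15.4, 19.1 and 18.3 CPM with gRNA2 and 13.2, 13.5 and 12.5 CPM in the controls. The fold between guides was 0.474 (interval 0.424 to 0.53, adjusted p = 1.36e-06), from 2.84-fold of the control with gRNA1 and 1.34-fold with gRNA2. SYK, a tyrosine kinase of immune receptors, was at 9.31, 9.99 and 9.8 CPM with gRNA1 and 4.66, 5.46 and 4.5 CPM with gRNA2 (0.506-fold, adjusted p = 5.45e-05), at 2.48-fold and 1.26-fold of the control (the latter with an adjusted p of 0.0868). PCSK5, a proprotein convertase, was at 0.495-fold (adjusted p = 0.00263), at 2.22-fold and 1.1-fold of the control. IGFBP3, above, was at 1.76-fold and 0.889-fold of the control.

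C11orf86 had the lowest fold of all named genes, at 4.29, 2.82 and 3.45 CPM with gRNA1 (87, 66 and 70 reads) and 0.784, 0.84 and 1.26 CPM with gRNA2 (19, 22 and 21 reads), which gave 0.268-fold (interval 0.19 to 0.377, adjusted p = 0.000225). MAP7D2, a microtubule-associated protein, was at 7.84, 9.78 and 10.7 CPM against 4.41, 5.23 and 4.74 CPM (0.509-fold, adjusted p = 0.000271), and CEMIP, a hyaluronan-degrading protein, at 0.522-fold (adjusted p = 0.0054). Neither call held with transcript-length offsets (adjusted p = 0.122 and 0.141). The lincRNA MANCR was at 0.465-fold (adjusted p = 0.00917, and 0.141 with those offsets, 0.0505 without gRNA1 replicate 1 and 0.0591 without gRNA2 replicate 2). ABCA12, a keratinocyte lipid transporter, was at 2.86, 4.01 and 3.74 CPM with gRNA1 and 2.02, 1.3 and 2.4 CPM with gRNA2 (0.526-fold, adjusted p = 0.018). Its call ended without gRNA1 replicate 2 (adjusted p = 0.0888), gRNA1 replicate 3 (0.0566) or gRNA2 replicate 2 (0.0939) and with transcript-length offsets (0.653). The stem cell factor SOX2, at 3.45, 3.37 and 4.09 CPM against 1.86, 1.91 and 2.34 CPM, was lower with gRNA2 than with gRNA1 (0.555-fold, adjusted p = 0.0083) and above the control with both, at 4.03-fold and 2.24-fold.

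Among the 12 genes with the highest folds, some belong to none of the lists above. CFB, complement factor B, was at 2.27, 2.43 and 2.22 CPM with gRNA1 and 4.87, 4.47 and 3.54 CPM with gRNA2 (1.88-fold, adjusted p = 0.0082), and 42.9% of its 31-base words lie in other genes as well. CLDN1, a tight junction claudin, was at 2.12, 2.09 and 1.67 CPM against 3.38, 3.4 and 3.72 CPM (1.77-fold, adjusted p = 0.00397). FGD2, a Cdc42 exchange factor, was at 1.77-fold (adjusted p = 0.00582) and the calcium-binding CALB1 at 1.76-fold (adjusted p = 0.0151). The call of CALB1 ended without gRNA1 replicate 1 (adjusted p = 0.0606) or replicate 2 (adjusted p = 0.0577). In each of these genes all gRNA2 libraries were above all gRNA1 libraries.

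**Figure D5:**
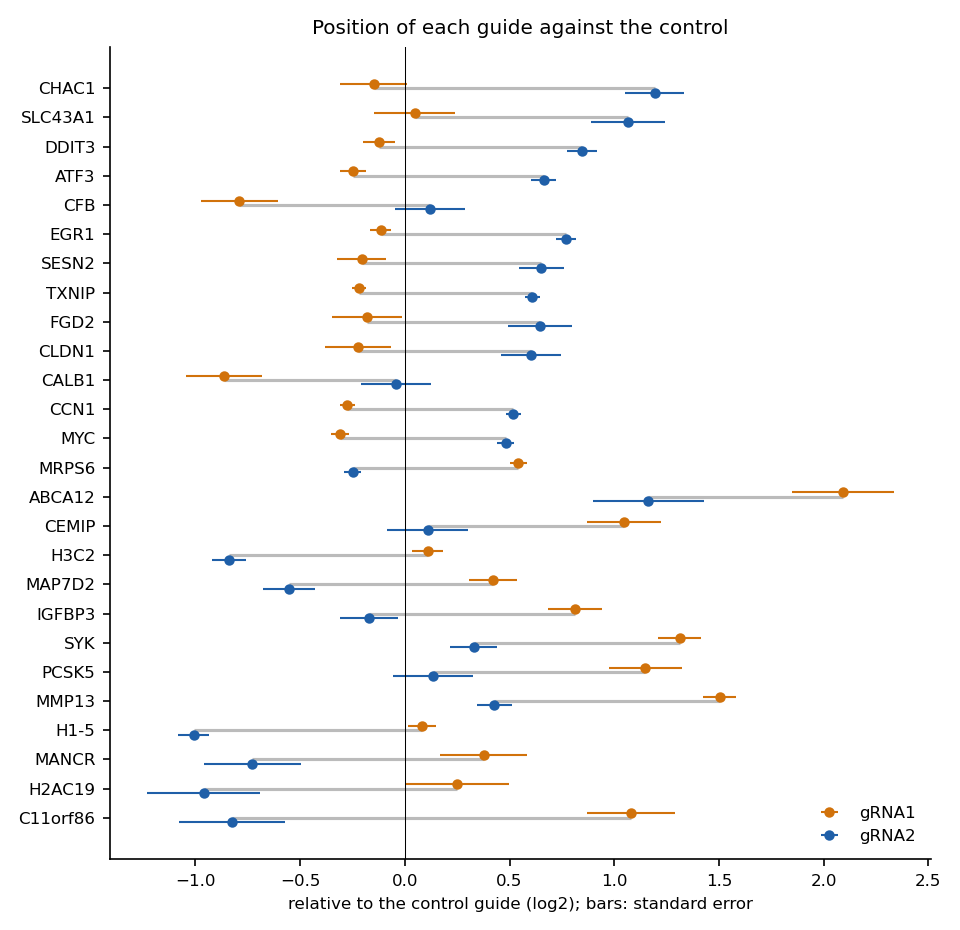
Log2 difference from the control with its standard error for gRNA1 and gRNA2 in 26 genes, and both guides share the control libraries. MYC, CCN1, TXNIP and ATF3 lie below 0 with gRNA1 and above it with gRNA2, MRPS6 and MAP7D2 the other way round, and MMP13 and ABCA12 lie above 0 with both.

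The remaining programmes are given by their counts, to be read against 3.12% of all genes called higher and 3.1% called lower. The share higher was above that of all genes in the sterol, p53, apoptosis and matrix lists. The share lower was above it in the apoptosis, matrix and mitochondrially encoded lists, on 1 or 2 genes each. Of 17 fatty acid synthesis genes, 0 were called by edgeR in either direction (DESeq2 called 1 higher and 1 lower). Of 25 sterol synthesis genes, 3 were higher and 0 lower, with 1 higher without gRNA1 replicate 1 or replicate 2. Of 21 p53 targets, 3 were higher and 0 lower, and CDKN1A (p21) and MDM2, at 1.11-fold and 1.07-fold, did not pass (adjusted p = 0.345 and 0.221). The p53 count was 0 without gRNA1 replicate 2 or gRNA2 replicate 2, 0 with transcript-length offsets, and 1 without gRNA1 replicate 1 or 3 or gRNA2 replicate 1 or with the 6 guide libraries alone. Of 29 apoptosis regulators, 6 were higher and 1 lower: the BH3-only gene PMAIP1 (NOXA) was at 42.4, 45.0 and 41.0 CPM with gRNA1 and 56.4, 60.5 and 69.2 CPM with gRNA2 (1.44-fold, adjusted p = 0.000525), and BMF, of the same class, at 0.652-fold (adjusted p = 0.000625). With transcript-length offsets BMF was not called (0.809-fold, adjusted p = 0.603), and 2 of the list were higher and 0 lower. The higher count was 1 without gRNA2 replicate 2, 2 without gRNA1 replicates 1 or 2, and 3 without gRNA1 replicate 3 or control replicate 2. Of 29 matrix, laminin and integrin genes, 4 were higher and 2 lower, with FN1 (fibronectin) at 1.3-fold (adjusted p = 2.31e-05) and TGFBI at 0.807-fold (adjusted p = 3.51e-05), and 1 was lower without gRNA1 replicate 2, gRNA1 replicate 3 or gRNA2 replicate 2. Of 13 mitochondrially encoded proteins 0 were higher and 1 lower, and 4 were higher without gRNA1 replicate 3, the library with the highest mitochondrial share.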

How the data were processed

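Total RNA of 9 libraries was quantified by the authors with Salmon 1.4.0 and hg38, per the submitters' processing notes. The deposited tables hold an estimated count of reads per transcript and a TPM value, per the file headers, for 211939 transcripts. The strand setting is not given in the sources used here. TPM was used only for the single transcripts of the target.

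Estimated counts were summed to 56823 genes with GENCODE 29 (95.71% of transcripts matched, with 1.264% to 1.325% of reads on the rest left out), and rounded to whole numbers. Symbols were updated through gene names and RefSeq synonyms (26 older names). All 9 libraries (16918432 to 26466536 reads) entered one edgeR 4.0.16 quasi-likelihood fit (R 4.3.3, TMM scaling, filterByExpr), and the contrast was gRNA2 minus gRNA1 over 19658 genes, with Benjamini-Hochberg adjustment over all of them and a threshold of 0.05. The biological coefficient of variation was 0.051. Folds are estimates of edgeR, with 95% intervals from their standard errors. CPM is on the TMM scale. On simulated counts for this contrast, 49.3%, 82.1% and 98.5% of genes changed 1.25, 1.5 and 2 times were found again. That run of 19322 genes held 3 false calls, and 0 of 19331 genes were called when no change was simulated. The changed genes all had an average log2 CPM of 1 or more, so the shares found again do not cover lower genes. Each gene was drawn on its own with the spread fitted at its level, so deviations shared across a library were not simulated.

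Named were the target, TRIM28 and EGFR, the 12 highest and 12 lowest folds among called genes whose average level was log2 CPM 1 or more and whose libraries did not overlap, up to 4 called members of each of 43 lists by lowest adjusted p, and the 5 lowest adjusted p. Chosen after their values were seen were DNASE1, ZNF200, KRT19, CDC20, PLK1, CDK1, MCM6, MCM2, BRCA1, GDF15, ATF4, ATF5, PHGDH, MTHFD1, HSPA5, HSP90B1, JUN, FOS, DUSP6, ANKRD1, VEGFA, ISG15, SAMD9, SLC7A11, GAS5, HAGLR, CDKN1A and MDM2. The members and lists were chosen with earlier results of these data known. Lists were described by counts and medians, with no set test.

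Shared sequence was counted as 31-base words of a gene's GENCODE 29 transcripts that occur in any other gene. Promoters are RefSeq windows (GRCh38.p14) of 250 bases before and 50 after the start, 27305 in all. Alternatives were DESeq2 1.42.0, its size factors in edgeR (RLE scaling), no filter, the replicate block, the 6 guide libraries alone, transcript-length offsets, protein-coding genes alone and leaving out each library. Some genes that the naming rule selects are not reported here.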

Additional observations from a re-analysis of the deposited data

Results flagged for a closer look

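In 16 of the named genes, both guides passed the test against the control in opposite directions. The difference between the guides passed it too, with 13 higher and 3 lower with gRNA2 than with gRNA1. The named genes were chosen in part for their difference between the guides. Among all genes called between the guides, opposite sides of the control were called for 23 of 613 higher (3.75%) and 7 of 609 lower (1.15%). Another 239 of the higher and 152 of the lower genes were called against the control with neither guide. The comparisons with the control share its libraries, so the direct contrast between the guides is the test of the difference. TXNIP was at 0.859-fold of the control with gRNA1 (edgeR adjusted p = 0.00182) and 1.53-fold with gRNA2 (adjusted p = 5.58e-07), 1.78-fold apart. CCN1 was at 0.827-fold and 1.43-fold, 1.73-fold apart, and MYC at 0.806-fold and 1.4-fold, also 1.73-fold apart. ATF3 was at 0.843-fold (adjusted p = 0.0317) and 1.58-fold, 1.88-fold apart. In the other direction, MRPS6 was at 1.46-fold with gRNA1 and 0.841-fold with gRNA2, 0.578-fold for gRNA2 over gRNA1. MAP7D2 was at 1.34-fold (adjusted p = 0.0409) and 0.681-fold (adjusted p = 0.0145), 0.509-fold for gRNA2 over gRNA1, and this contrast missed the threshold with transcript-length offsets (adjusted p = 0.122). SLC5A3, which lies within MRPS6, was at 1.42-fold and 0.794-fold of the control, 0.561-fold for gRNA2 over gRNA1.

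The remaining 9 were all higher with gRNA2 than with gRNA1. The ligand AREG was at 0.815-fold of the control with gRNA1 (edgeR adjusted p = 0.0234) and 1.35-fold with gRNA2 (adjusted p = 0.00158), 1.65-fold apart. Of the stress regulators, PPP1R15A was at 0.85-fold with gRNA1 (adjusted p = 0.0125) and called above the control with gRNA2, 1.47-fold apart, and STC2 at 0.892-fold (adjusted p = 0.0234) and 1.24-fold, 1.39-fold apart. Among the genes of amino acid supply, ASNS was at 0.84-fold and 1.13-fold (1.35-fold apart), PSAT1 at 0.871-fold and 1.17-fold (1.34-fold apart), and SLC1A5 at 0.869-fold (adjusted p = 0.0496) and 1.16-fold (adjusted p = 0.0362), 1.33-fold apart. The YAP targets AMOTL2 and F3 were at 0.847-fold and 1.24-fold, and at 0.805-fold and 1.14-fold, 1.46-fold and 1.42-fold apart. IFITM1, at 0.793-fold and 1.11-fold, was 1.4-fold apart.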

How the results depend on the processing

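Of 160 named genes called, 77 were called under every alternative and without every library, 53 lost the call without at least 1 library, 73 with transcript-length offsets, 15 with the 6 guide libraries alone, 4 with DESeq2, and 0 reversed. Over all genes, 446 were called with transcript-length offsets (263 higher, 183 lower), against 1222 (613 and 609), and the cause was not tested. At least 2-fold calls numbered 4 with DESeq2 and 173 with no filter on low counts, against 30. With 1 library left out, 575 to 1215 genes were called, 288 to 620 higher and 285 to 595 lower. With transcript-length offsets the list counts were 2 for ERK feedback, 11 for G2 and mitosis, 2 for S phase, 5 for amino acid transporters, 5 for synthetases, 2 for endoplasmic reticulum chaperones, 4 for YAP targets, 8 for interferon-stimulated genes, 5 for NRF2 targets, 4 for snoRNA hosts and 0 for oxidative phosphorylation, which had 7 with the 6 guide libraries alone. With 1 library left out, the ranges were 2 to 5 for ERK feedback, 12 to 20 for S phase, 5 to 8 for transporters, 3 to 8 for synthetases, 6 to 14 for interferon-stimulated genes and 2 to 13 for oxidative phosphorylation. List medians changed sign for fatty acid synthesis (-0.019, but 0.041 with length offsets and -0.035 to 0.01 with 1 library left out, above 0 at 0.001 without gRNA2 replicate 3 and 0.01 without gRNA1 replicate 1), splicing regulators (0.019, but -0.018 with length offsets and -0.019, without gRNA2 replicate 3, to 0.046 with 1 library left out) and mitochondrially encoded proteins (-0.012, -0.042 to 0.107 with 1 library left out, the highest without gRNA1 replicate 3). No scaling moved the median over all genes beyond -0.001 to 0.007. With the replicate block 1144 genes were called, 7 named genes lost the call, and TRIM28 passed (adjusted p = 0.0364, edgeR). The numbers do not pair the libraries of the 2 guides, whose same-numbered deviations correlated at -0.139, 0.0548 and -0.101. Those of gRNA2 and control correlated at 0.21, 0.107 and 0.105. The pairing was therefore also used for gRNA2 against control, a choice made after seeing the data. There, 1582 genes were called with the replicate block (703 higher, 879 lower) against 1659 without it (726 and 933). S phase genes lower numbered 21 against 24, and interferon-stimulated genes higher 4 against 5. No other list count or call of a named gene given above for gRNA2 against control changed. The target rested on 36 to 61 reads per guide library; SLC43A1 and CLDN1, at 1.43 to 2.12 CPM in the gRNA1 libraries, were called.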

Other observations

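Outside the lists, some further genes were chosen for their values after these were seen. CD274, which encodes the checkpoint ligand PD-L1, was at 44.8, 49.5 and 45.6 CPM with gRNA1 and 77.4, 77.6 and 79.8 CPM with gRNA2 (1.68-fold, edgeR adjusted p = 9.22e-07), and PDCD1LG2, which encodes PD-L2, at 1.5-fold (adjusted p = 0.0132). STS, steroid sulfatase, was at 81.3, 85.3 and 79.5 CPM with gRNA1 and 52.6, 50.6 and 49.1 CPM with gRNA2 (0.62-fold, adjusted p = 7.06e-07), with the controls at 54.2, 54.5 and 52.5 CPM beside gRNA2. PARP1, which marks DNA breaks with poly(ADP-ribose), was at 111, 105 and 113 CPM with gRNA1, 84.6, 88.1 and 85.5 CPM with gRNA2 and 98.9, 97.8 and 98.8 CPM in the controls, which lay between the guides (0.785-fold between guides, adjusted p = 0.000158). The helicase DHX9 was at 0.761-fold (adjusted p = 2.12e-05) and TUBA1B, an alpha-tubulin, at 0.759-fold (adjusted p = 3.69e-05).

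Gene structure and position were set beside the difference between the guides. Over 5 equal bins of protein-coding genes by length the median log2 difference was -0.019, 0.006, 0.013, 0.01 and -0.002 from short to long, and over 5 bins by GC content 0.006, -0.003, -0.012, -0.002 and 0.024 from low to high. Chromosome medians lay between -0.021 and 0.044, leaving aside 9 scaffolds with at most 2 tested genes each. The calls were uneven. On chromosome 3, 59 of 1103 genes tested were higher and 16 lower, with 47 and 13 of 1041 on chromosome 11. On chromosome 19 they numbered 50 and 16 of 1461. On chromosome 1, 50 of 1892 were higher and 99 lower, with 30 and 62 of 876 on chromosome 6. On chromosome 16 they numbered 13 and 37 of 970, and on chromosome X 7 and 24 of 614. Over all 19658 genes 613 were higher and 609 lower. These 7 chromosomes were chosen for their counts, which were not tested. Some histones called lower, H1-5 and H3C2 among them, lie on chromosome 6, and their part in its count was not separated. Of the genes called with an at least 2-fold difference, SRP9P1, RPL23AP45, TNFSF12-TNFSF13, AC074091.1, AC110275.1, C4B and CBSL share 93.8% to 100% of their 31-base words with other genes, so their reads may belong to another copy.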
